A study of Mus musculus with 12 samples.

Results

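The mRNAs of the proteasome were examined in mouse splenic B cells that had been activated with LPS and then exposed to DNA damage. The genes were all those whose symbol begins with Psma, Psmb, Psmc or Psmd and a digit, without the immunoproteasome genes Psmb8, Psmb9 and Psmb10 and without rows named as pseudogenes. This rule, which uses names and no measured value, gave 37 of the 29486 genes in the table. B cells were isolated from the spleens of young adult C57BL/6Babr mice and all cultures received LPS (10 μg/ml), which drives B cells to divide. Cells of the LPS group had LPS for 48 h and no further agent. Cells of the LE group then received etoposide (20 μM, 4 h), a topoisomerase II inhibitor that causes DNA double-strand breaks. Cells of the LEKU group had LPS for 47 h, then KU55933 (10 μM), an inhibitor of the ATM kinase that signals such breaks, for 1 h before the same etoposide treatment. There were 4 libraries of polyadenylated RNA in each group, and no group with KU55933 and without etoposide was analysed here, so that an effect of the inhibitor alone cannot be told apart from its effect under etoposide. Each condition's libraries carry Illumina indexes that the other conditions lack, so index and condition cannot be told apart either. By the times given, etoposide followed the 48 h of culture, and the LPS group has no matching later time. Time in culture and etoposide therefore cannot be told apart in the comparisons with LPS.

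The proteasome is the protease that degrades proteins tagged with ubiquitin. Its core particle is a barrel of stacked rings, with outer rings of alpha subunits (Psma genes) that gate the entrance and inner rings of beta subunits (Psmb genes), of which Psmb5, Psmb6 and Psmb7 cut the substrate. The 19S regulatory particle caps the barrel and consists of a base, with a ring of ATPases (Psmc1 to Psmc6) that unfold the substrate and the scaffold and receptor subunits Psmd1, Psmd2 and Psmd4, and of a lid of other Psmd subunits. B cells stimulated to divide and to make antibody carry a heavy load of protein synthesis, and antigen-presenting cells such as B cells can exchange the catalytic subunits for those of the immunoproteasome.

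Across the 4 libraries of a condition the values of all genes differed by the same factor, to within 1.4e-14 in log2 units. They are therefore a mean fitted for the condition multiplied by the size of each library, and hold no spread between replicates. Each condition thus gives 1 value per gene. The differences below cannot be set against replicate error, carry no test, and are described by their size against that of all genes. Totals of fitted counts per library, in units of 1000000, were 20.7 to 23.9 with LPS, 22.5 to 30.6 in LE and 20.4 to 25.1 in LEKU. Counts were divided by size factors (median of ratios, 0.838 to 1.30 over the 12 libraries) and are called scaled counts. A gene passed the filter where 4 libraries or more had a scaled count of 10 or above, as for 15613 genes, 35 of the 37 proteasome genes among them. A difference is the log2 ratio of scaled counts with 1 added to each, and is called past the threshold beyond 1.5-fold, or 0.58 on the log2 scale. Counting error alone gave these 35 genes a standard error between 0.010 and 0.062 on that scale, which leaves out all variation between cultures.

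The cells carried the mRNAs of B cells. All 8 B cell markers passed the filter, and their scaled counts summed to 470212, 371612 and 384930 in LPS, LE and LEKU. Among them Pax5, a transcription factor that maintains B cell identity, had 5406, 1139 and 1175, and Cd22, a B cell surface receptor, 23516, 4342 and 5094. All 8 were lower in LE than in LPS, from -2.44 for Cd22 to -0.18 for Ighm on the log2 scale. The T cell receptor genes Cd3e, Cd3d and Cd3g were at 0.681 to 3.57 in every condition, and of 6 T cell markers only Lck passed the filter, with a list sum of 281 to 422. All 6 macrophage or monocyte markers passed it with sums of 407 to 475, against 1 of 4 for neutrophils (sums 2.12 to 15.2), 2 of 5 for red blood cells (108 to 211) and 0 of 2 for NK cells (0.775 to 1.43). Csf1r and Cd14 were under 10 with LPS (4.08 and 5.05) and passed only through conditions with etoposide. The neutrophil marker Mpo did so through LE (1.23, 14.1 and 3.37). The macrophage sums hide opposite differences in LE against LPS. Cd14 was at 2.08, Csf1r at 1.18, Cd68 at 1.06 and Lyz2 at 0.53, but Itgam at -0.71 and Adgre1 at -0.06. The 5 plasma cell markers summed to 24410, 26268 and 16154, and among them Sdc1, a plasma cell surface proteoglycan, had 135, 1984 and 641. The other plasma cell markers did not share its order: Prdm1 and Xbp1 were at -0.40 and -0.46 in LE against LPS, Irf4 and Jchain at 0.16 and 0.44, and in LEKU against LPS all of them were lower (-0.90, -0.44, -0.82 and -0.49) where Sdc1 was at 2.24. Thus B cell, macrophage or monocyte and plasma cell markers differed between the conditions alongside the proteasome genes. Their part in the differences below was not tested. In these bulk samples fewer cells of a type and less RNA per cell cannot be told apart.

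Most proteasome mRNAs were abundant. The 37 genes took 0.483% of all fitted counts with LPS, 0.495% in LE and 0.422% in LEKU. To compare genes, scaled counts were divided by exon length and expressed per 1000000 such values in the condition. On this scale of levels per kilobase, the 14 ring subunits of the core that passed the filter ranged with LPS from 116 for Psmb7 to 461 for Psma6, with a median of 184. The 17 genes of the 19S particle had a median of 128 and ranged from 71.9 for the lid subunit Psmd11 to 313 for the ATPase Psmc5. The highest level was 3.99 times the lowest in the core and 4.35 times the lowest in the 19S particle. With LPS the 35 genes stood above 42.8% to 98.1% of the genes that passed the filter, with a median of 92.4%.

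The genes under this range encode assembly chaperones, a recombination factor and tissue-restricted subunits. Psmd9, Psmd5 and Psmd10 encode chaperones that help to assemble the base, and had levels per kilobase of 10.5, 21.5 and 54.9 with LPS. Psmc3ip, which meets the rule by its name alone and encodes a factor of meiotic recombination, had a level of 21.8. Psma8 and Psmb11 encode the subunits of testis and of thymic epithelium that replace constitutive ones there. Their scaled counts were 2.32, 2.69 and 2.64 for Psma8 and 5.86, 6.54 and 6.30 for Psmb11 in LPS, LE and LEKU, under the filter in every condition. The 4 rows named as pseudogenes of Psmb5, Psmb6 and Psmb7 had scaled counts of at most 0.598. Reads that a gene and its processed pseudogene could share were not examined here.

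**Figure D1:**
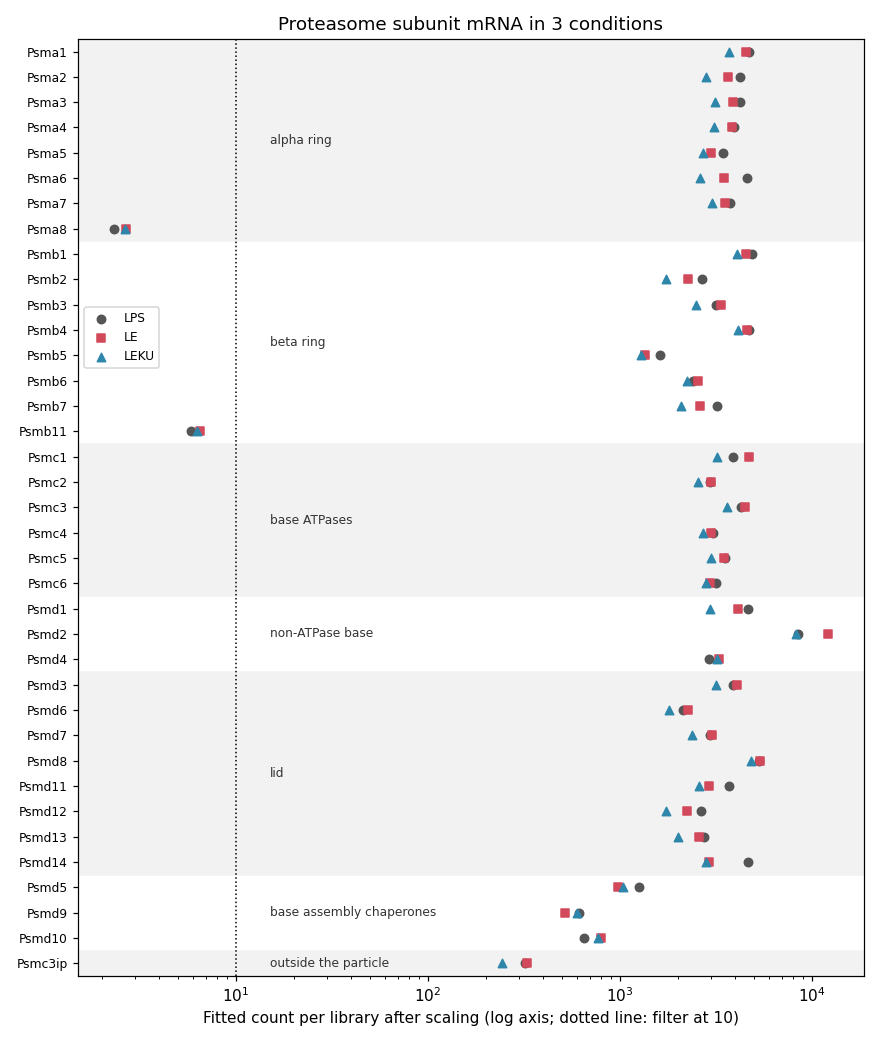
Scaled fitted counts (horizontal log axis) of the 37 proteasome genes (vertical axis, grouped by position in the particle) in LPS (circles), LE (squares) and LEKU (triangles), 1 value per condition with no error bar because the table holds no spread. Ring, base and lid subunits lie between 1295 for Psmb5 in LEKU and 12129 for Psmd2 in LE, and Psma8 and Psmb11 lie under the dotted line at 10.

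The order of levels within each ring, with LPS, ran from Psma6 (461) to Psma3 (134) in the alpha ring and from Psmb4 (300), which has no catalytic site, to Psmb7 (116) in the beta ring. Among the ATPases it ran from Psmc5 (313) to Psmc2 (72.3), in the rest of the base from Psmd2 (260) to Psmd1 (79.6), and in the lid from Psmd8 (215) to Psmd11 (71.9). Of these genes, Psma3 had scaled counts of 4226, 3904 and 3128 in LPS, LE and LEKU, Psmb4 4739, 4620 and 4135, and Psmc5 3532, 3476 and 2978. Psmc2 had 2948, 2986 and 2553, Psmd8 5316, 5369 and 4829, and Psmd11 3717, 2932 and 2586. LEKU was the lowest condition for each of these 6 genes. Psma6 was the highest with LPS, Psmd2 (371) with etoposide and Psmc5 (273) in LEKU, followed there by Psma6 (272) and Psmb4 (270). With the longest transcript in place of all exons, levels of single genes were 0.769 to 2.12 times as large. Spearman's rho between both sets of levels with LPS was 0.886 over the 35 genes. The order thus rests in part on the choice of length. Psma6 with LPS (420) and Psmd2 in LE (386) stayed the highest, but in LEKU Psmb4 (345) and Psma1 (303) were above Psmc5 (211). With LPS, Psmd14 (287) was above Psmd8 (254) in the lid. Psmd4 (130) was then below Psmd1 (143), and Psmc2 (80.7) below Psmd11 (119).

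Of the proteasome genes, 3 are shown with 200 bases upstream of the annotated start, from RefSeq for GRCm38.p6. Psmd14 and Psmd2 had the largest opposite differences with etoposide, and Psmb6 is a catalytic subunit whose promoter holds the core of the antioxidant-type element bound by Nfe2l1, the factor that drives proteasome genes when the protease is inhibited. Capitals mark 1 match to a searched motif in each, which stands on the strand opposite to the gene in Psmd14 and Psmd2. They are CCAAT in Psmd14, CCGGAAG (an ETS-type site) in Psmd2 and TGACNNNGC in Psmb6.
Psmd14, chr2:61711494-61711693 (+): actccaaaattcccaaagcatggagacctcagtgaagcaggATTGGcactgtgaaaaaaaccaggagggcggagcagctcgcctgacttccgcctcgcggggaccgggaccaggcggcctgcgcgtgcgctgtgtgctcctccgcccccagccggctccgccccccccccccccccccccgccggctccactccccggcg
Psmd2, chr16:20651452-20651651 (+): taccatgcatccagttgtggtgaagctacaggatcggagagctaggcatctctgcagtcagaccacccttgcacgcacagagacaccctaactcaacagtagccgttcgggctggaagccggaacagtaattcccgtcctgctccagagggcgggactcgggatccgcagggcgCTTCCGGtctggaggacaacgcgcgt
Psmb6, chr11:70525157-70525356 (+): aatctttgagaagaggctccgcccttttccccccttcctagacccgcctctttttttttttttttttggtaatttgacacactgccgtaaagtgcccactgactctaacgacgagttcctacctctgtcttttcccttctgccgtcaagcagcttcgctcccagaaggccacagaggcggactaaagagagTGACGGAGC
The matches begin 159, 26 and 9 bases upstream of the start. Promoters of 250 bases before to 50 bases after the start were matched for 30 of the 37 genes, and both strands were searched. A gene was counted where at least 1 of its promoters held the motif. TGACNNNGC was in 5 of the 30 (16.7%), namely Psmb5, Psmb6, Psmc6, Psmd9 and Psmd12. The share was 14.0% of all 27025 genes with a promoter and 17.1% of the 10203 such genes past the filter. CCAAT was in 13 (43.3%, against 41.1% and 42.9%). CCGGAAG was in 11 (36.7%, against 9.93% and 19.6%), among them Psma6, Psmc1, Psmd2 and Psmd12. These are matches of letters in a window and not binding sites.

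The comparison of LE with LPS asks how mRNA abundance differs after 4 h of etoposide, together with any difference in time in culture. Most proteasome mRNAs differed little. Only Psmd14, the lid metalloprotease that removes ubiquitin chains from substrates, was past 1.5-fold, lower by a log2 of 0.67 (LE against LPS -0.67), and none was past it in the higher direction. Of all genes that passed the filter, 23.4% were past the threshold higher and 14.4% lower (37.7% in either direction), and of the 4589 genes with at least 1000 scaled counts in every condition 7.61% and 16%. The median difference of the 35 genes was -0.06 and that of all genes 0.04, with interquartile ranges of 0.28 and 0.86. The interquartile range was 0.58 among the genes with at least 1000 counts, whose median was -0.09. Lower values in LE were seen for 22 of the 35 genes (62.9%), against 47.1% of all genes and 58.9% of the genes with at least 1000 counts.

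In the deposited columns Psmd14 had 3906, 4334, 4508 and 4062 in the 4 LPS libraries, 2804, 3142, 3806 and 3046 in LE, and 2522, 2843, 3046 and 3096 in LEKU. After scaling it had 4661, 2929 and 2800 in the 3 conditions, so that LE and LEKU were at 0.628 and 0.601 times the LPS value. Its difference for LEKU against LE was -0.06. Under 6 ways of setting the scaling between conditions, Psmd14 stayed past the threshold against LPS in 4 for each of its comparisons.

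Psmd2, the base scaffold on which shuttle proteins dock, differed in the other direction. Its deposited values were 7125, 7905, 8223 and 7409 with LPS, 11610, 13013, 15761 and 12615 in LE, and 7444, 8395, 8993 and 9141 in LEKU. The scaled counts of 8501, 12129 and 8268 put LE alone high, with LEKU near LPS. The difference for LE against LPS was 0.51, just inside the threshold, and was past it in 3 of the 6 scalings.

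LE was also the highest condition for the ATPase Psmc1, with scaled counts of 3902, 4720 and 3221. Its differences were 0.27 for LE against LPS and -0.55 for LEKU against LE. The chaperone Psmd10 was higher in both conditions with etoposide, at 653, 796 and 772. Among the genes lower with etoposide, Psma6 had 4609, 3477 and 2629, a stepwise order in which LEKU was the lowest, and Psmd5 had 1257, 974 and 1038. Their differences for LE against LPS were -0.41 and -0.37.

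By position in the particle, all 7 alpha ring genes that passed the filter were lower in LE than in LPS, with a median of -0.11. In the beta ring 5 of 7 were lower (median -0.10), among the ATPases 3 of 6 (median -0.0021), in the rest of the base 1 of 3 and in the lid 4 of 8 (median -0.03). These small differences turn with the scaling, as the sign did for 21 of the 37 genes in at least 1 of the 6 scalings. Over the same scalings the median of the 35 genes lay from -0.17 to 0.06.

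**Figure D2:**
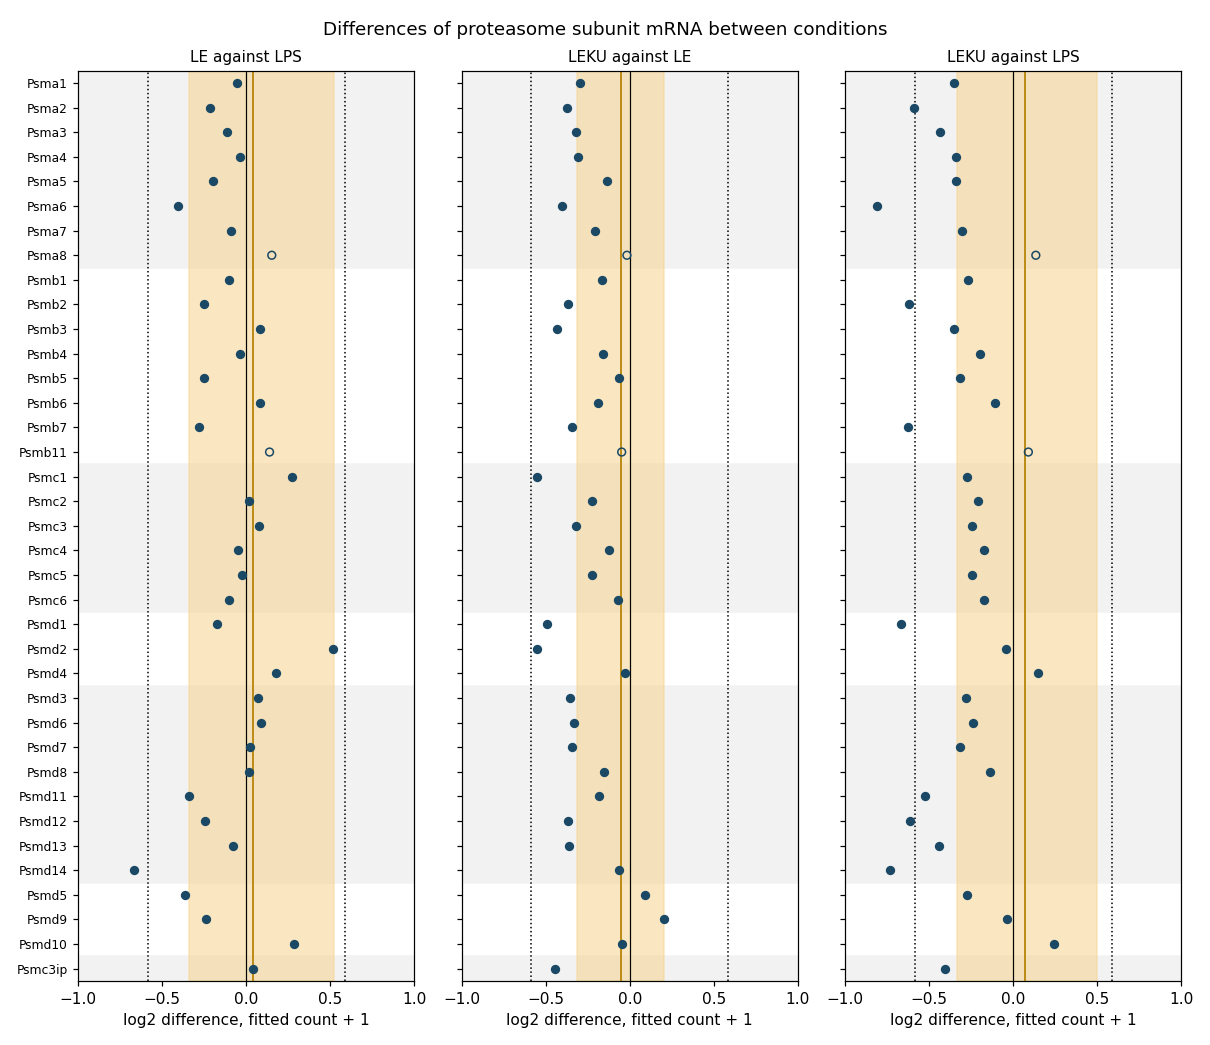
Log2 differences of scaled counts (horizontal axes) of the 37 proteasome genes (vertical axis, same order as above) for LE against LPS, LEKU against LE and LEKU against LPS, with filled points for the 35 that passed the filter and open points for Psma8 and Psmb11. The yellow band and line are the interquartile range and median of all 15613 genes, and dotted lines mark 1.5-fold: Psmd14 is past it in the first panel, none in the second and 7 in the third.

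The comparison of LEKU with LE asks how blocking ATM alters the state under etoposide. Proteasome mRNAs were lower with the inhibitor almost throughout: 33 of the 35 genes (94.3%) had a lower value in LEKU than in LE, against 55.6% of all genes and 58.1% of those with at least 1000 counts. None was past 1.5-fold, where all genes had 6.93% past it higher and 11.9% lower (18.9% in either direction), and the genes with at least 1000 counts 3.38% and 3.92%. The median was -0.30 for the proteasome genes, -0.05 for all genes and -0.05 for those with at least 1000 counts, with interquartile ranges of 0.22, 0.52 and 0.37. This was thus a small shift shared by many of the genes rather than a large one of a few. Between 30 and 33 of the 35 genes were lower in each of the 6 scalings.

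All 7 alpha ring, 7 beta ring, 6 ATPase and 8 lid genes that passed the filter were lower in LEKU than in LE, with medians of -0.31, -0.19, -0.22 and -0.34. So were the 3 other base subunits, from -0.55 for Psmd2 to -0.03 for Psmd4, the receptor that binds ubiquitin chains. Next to Psmd2 stood Psmc1 at -0.55 and Psmd1, the other scaffold of the base, at -0.49. The 2 genes that were higher were the chaperones Psmd9 (0.20) and Psmd5 (0.09), and Psmd9 had scaled counts of 614, 520.0 and 598 in LPS, LE and LEKU. Psmc3ip, which is no part of the particle, was at -0.44, and without it the median was -0.26 over 34 genes, 32 of them lower.

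The catalytic subunits differed from each other. Psmb5, the chymotrypsin-like site, had scaled counts of 1615, 1355 and 1295 in LPS, LE and LEKU, and Psmb6, the caspase-like site, 2407, 2543 and 2231. Psmb7, the trypsin-like site, had 3203, 2634 and 2079. Their differences for LEKU against LE were -0.06, -0.19 and -0.34, so that Psmb7 was the lowest of the catalytic genes in this comparison, as it also was against LPS.

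LEKU against LPS combines both agents and shares its libraries with the comparisons above, so it adds no independent values. Here 7 of the 35 genes were past 1.5-fold, all lower, where 14.2% of all genes were past it lower and 22% higher (36.2% in either direction). Of the genes with at least 1000 counts, 17.4% were past it lower and 5.82% higher. The share of the proteasome genes was thus close to that of genes as abundant. The median was -0.30 against 0.07 for all genes and -0.12 for those with at least 1000 counts, and 33 of the 35 genes were lower, against 45.6% and 60.6%. With quantile normalization the medians of the proteasome genes and of all genes were closer, at -0.14 and -0.01.

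The 7 genes came from each ring, the base and the lid. Psma6 was at -0.81, Psmd14 at -0.73 and Psmd1 at -0.67. Psmb7 and Psmb2 were at -0.62 each, the lid scaffold Psmd12 at -0.61 and Psma2 at -0.59. Psmd11 (-0.52) and Psmd13 (-0.44), also of the lid, were the nearest inside the threshold. Psma6 alone was past the threshold in all 6 scalings, Psmd14 in 4, and the other 5 genes in 3 each. The count past the threshold thus ran from 1 to 8 over the 6 scalings, and the median from -0.38 to -0.14. The ATPases were the most even set, from -0.28 for Psmc1 to -0.17 for Psmc6. Psmd10 (0.24) and Psmd4 (0.14) were the genes with higher values in LEKU than in LPS, and Psmd4 had scaled counts of 2909, 3282 and 3216.

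In the deposited columns Psma6 had 3863, 4285, 4458 and 4017 with LPS, 3328, 3730, 4518 and 3616 in LE, and 2367, 2669, 2860 and 2907 in LEKU. The range of these columns within a condition reflects library size only, so overlap between conditions says nothing about replicates. Psmd1 had scaled counts of 4683, 4146 and 2946, Psmb2 2690, 2256 and 1750, Psmd12 2663, 2245 and 1743, and Psma2 4236, 3647 and 2811. All had the order LPS, LE, LEKU from high to low, as Psma6 and Psmb7 had.

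Ratios between genes within a condition do not depend on how the conditions are scaled to each other. Their size does rest on the length used, for single genes and for sums, while the change of a pair's ratio between conditions does not. On levels per kilobase of all exons, Psmd2 over Psmd14 was 1.27 with LPS, 2.89 in LE and 2.06 in LEKU. With the longest transcript and LPS, Psmd2 (269) was below Psmd14 (287). The base scaffolds parted as well, with Psmd2 over Psmd1 at 3.27, 5.26 and 5.05. Psmd4 over Psmd1 was 1.61, 2.05 and 2.82, and Psmc1 over Psmc6, both ATPases of one ring, 2.23, 2.90 and 2.07. With the longest transcript and LPS, Psmd4 (130) was below Psmd1 (143), while Psmd2 stayed above Psmd1 and Psmc1 above Psmc6. The ratios of these pairs thus differed between conditions, by as much as 1.18 on the log2 scale for Psmd2 over Psmd14 in LE against LPS. The pairs were chosen after their values were seen, and Psmd2 and Psmd14 had the largest rise and the largest fall in that comparison. A large change of their ratio was therefore fixed by the choice, and the pairs do not stand for the 19S genes at large.

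Sums over whole parts of the particle moved less. Such sums average over many genes, while the pairs were chosen by their values, so the sizes of their changes are not comparable. The alpha ring over the beta ring was 1.17, 1.10 and 1.06, and the core over the 19S particle 1.12, 0.985 and 1.01. As a share of the summed levels of the 37 genes, the alpha ring had 28.0%, 25.5% and 25.2% in LPS, LE and LEKU, and the beta ring 23.9%, 23.1% and 23.8%. The 3 non-ATPase base genes had 8.12%, 10.6% and 9.75%, largely Psmd2.

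**Figure D3:**
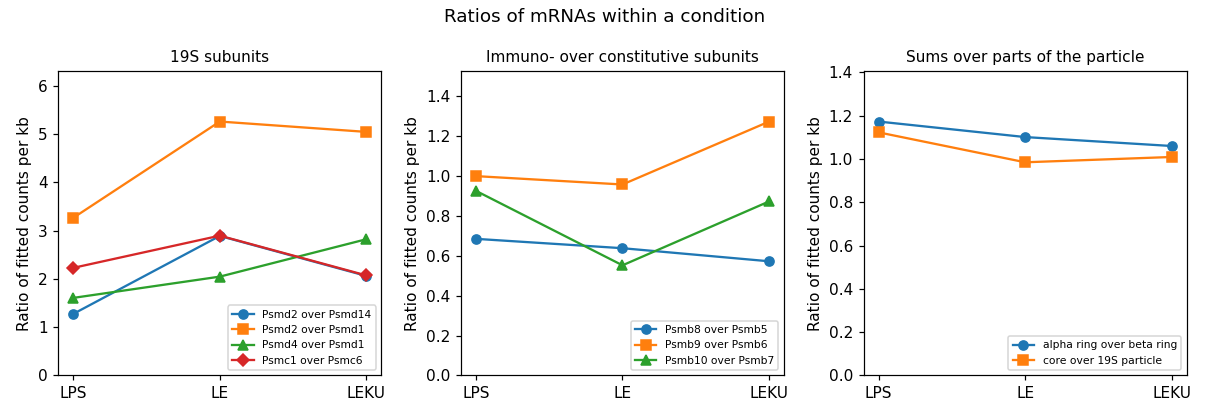
Ratios of levels per kilobase within LPS, LE and LEKU (horizontal axis) for 4 pairs of 19S genes, for each immunoproteasome gene over the constitutive subunit it replaces, and for sums over parts of the particle, with vertical axes from 0 and lines only to guide the eye. Psmd2 over Psmd14, a pair chosen after its values were seen, goes from 1.27 to 2.89 with etoposide. The alpha ring over the beta ring, a ratio of sums over many genes, lies between 1.06 and 1.17.

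The immunoproteasome genes, which the rule leaves out, encode Psmb8, Psmb9 and Psmb10, which replace Psmb5, Psmb6 and Psmb7. Their scaled counts were 4162, 3252 and 2789 for Psmb8, 4705, 4763 and 5557 for Psmb9, and 1479, 725 and 905 for Psmb10 in LPS, LE and LEKU. Psmb10 was past the threshold lower with etoposide, by a log2 difference of -1.03 and in all 6 scalings, and Psmb9 had its highest value in LEKU. Per kilobase of all exons, Psmb8 over Psmb5 was 0.685, 0.638 and 0.573, and Psmb9 over Psmb6 1.00, 0.958 and 1.27. Psmb10 over Psmb7 was 0.926, 0.552 and 0.873. The sizes of these ratios, and of the ratio of sums that follows, rest on the length used. With the longest transcript and LPS, the level of Psmb8 (207) was above that of Psmb5 (171). That of Psmb9 (155) was below that of Psmb6 (237), and Psmb10 and Psmb7 were at 107.1 and 106.7. The 3 immunoproteasome genes summed to 0.842, 0.739 and 0.887 of their constitutive partners. The log2 change of that sum ratio for LE against LPS was -0.19, smaller than that of Psmb10 over Psmb7 (-0.75) and larger than those of Psmb8 over Psmb5 (-0.10) and Psmb9 over Psmb6 (-0.06).

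The wider pathway was read from 37 other genes, which comprise the 3 immunoproteasome genes, activators, assembly factors, ubiquitin receptors, ubiquitin genes and the regulators of proteasome transcription. In LE against LPS 3 of the 37 were past 1.5-fold higher and 2 lower, in LEKU against LE none, and in LEKU against LPS 5 lower and none higher. Of all genes, 23.4% were past it higher and 14.4% lower in LE against LPS, 18.9% either way in LEKU against LE, and 22% higher and 14.2% lower in LEKU against LPS. The counts of pathway genes were thus under or near those shares. Their medians were -0.02, -0.10 and -0.22. The genes past the threshold higher with etoposide were Ubqln4 (0.84), a ubiquitin shuttle receptor, Nfe2l2 (0.66), the oxidative stress factor, and Ddi2 (0.59), the protease that activates Nfe2l1. Those lower were Psmb10 and AI314180 (-0.62), a scaffold that binds the proteasome. Ubqln4 and Psmb10 were past the threshold in all 6 scalings, Nfe2l2 and Ddi2 in 4 and AI314180 in 3. Ddi2 lay at the threshold itself, at 1.5002-fold in the main scaling.

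Nfe2l1 itself had scaled counts of 5204, 3779 and 5609, lower in LE than in either other condition, and its difference for LEKU against LE was 0.57, just inside the threshold. It was past the threshold in the 5 other scalings, up to 0.70. Ngly1, the glycanase that processes Nfe2l1, was at 792, 817 and 1067. In LEKU, where the proteasome mRNAs were lower than in LE, both of these genes were higher. The other listed regulators of proteasome transcription, Nfe2l2 (-0.21) and Ddi2 (-0.07), were lower in LEKU than in LE. In LEKU against LPS the genes past the threshold were Rad23b (-0.75), a shuttle receptor, the core assembly factor Psmg2 (-0.70), the activator Psme3 (-0.66), the shuttle receptor Ubqln1 (-0.59) and Psmb10 (-0.71). Rad23b was past it in 5 of the 6 scalings, Psmg2 and Psmb10 in 4, and Psme3 and Ubqln1 in 3. Pomp, which matures the core, was at -0.45 in LEKU against LE. The regulatory particle protein Txnl1 followed the order of Psmd2, with 2523, 3750 and 2515, and differences of 0.57 and -0.58 for LE against LPS and LEKU against LE.

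**Figure D4:**
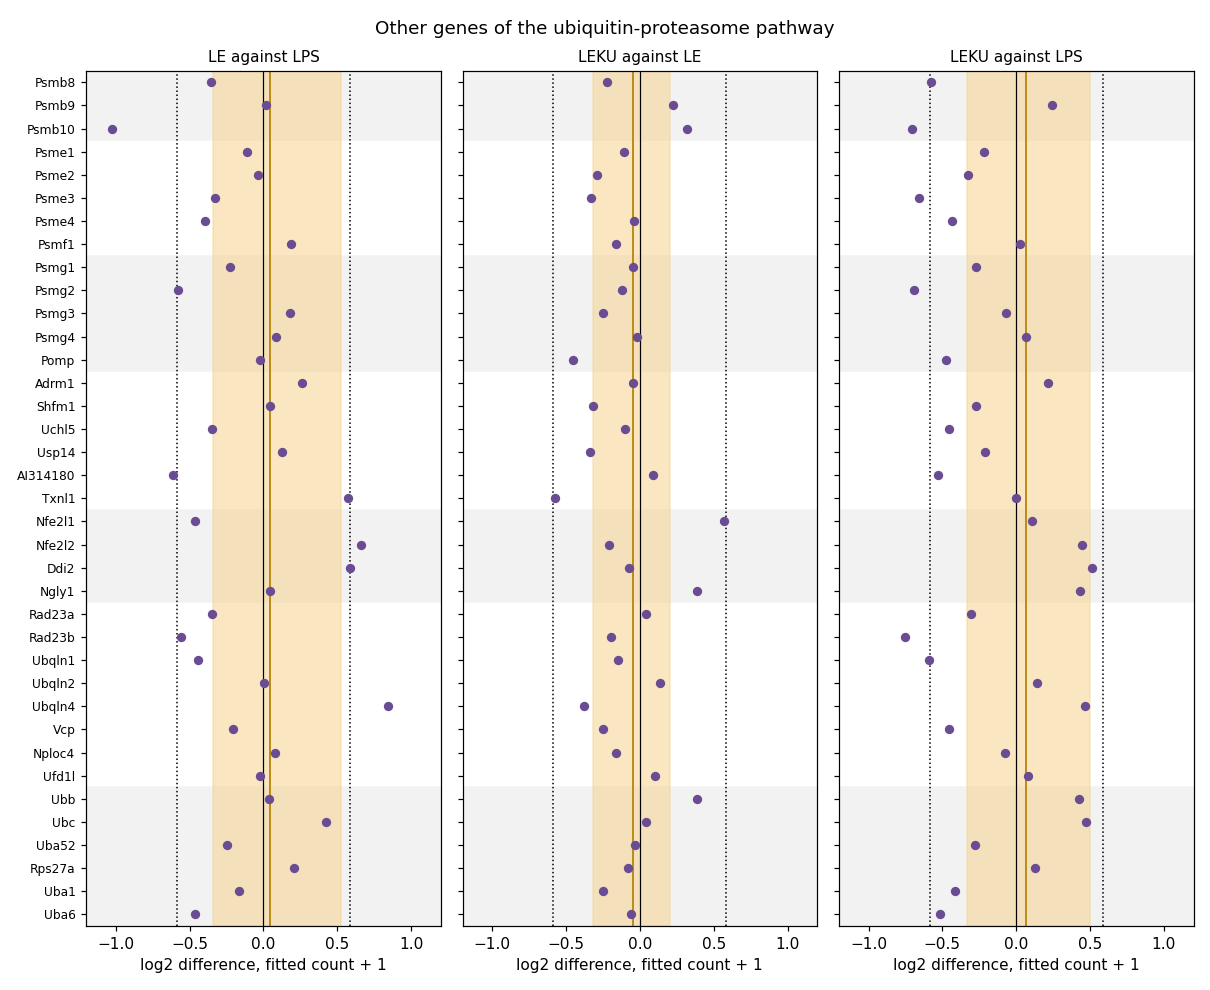
Log2 differences of scaled counts (horizontal axes) of 37 other genes of the ubiquitin-proteasome pathway (vertical axis, shaded by function) in the same 3 comparisons. The yellow band and line are the interquartile range and median of all 15613 genes and dotted lines mark 1.5-fold: Psmb10 lies at -1.03 in LE against LPS, and Nfe2l1 at 0.57 in LEKU against LE.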

How the data were processed

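mRNAseq was analysed in 12 libraries of mouse splenic B cells, 4 in each of the conditions LPS, LE and LEKU. Per the labels and the methods of the study, the authors trimmed reads with Trim Galore and cutadapt (1.2.1), mapped them with TopHat2 (2.0.12) to GRCm38, counted them per Ensembl gene with HTSeq and fitted DESeq2 (1.6.3). The deposited signal of each gene and library, named normalized counts by the authors, is the mean fitted for the condition multiplied by the size factor of the library. How far that fit drew differences toward 0 was not tested. The authors also deposited 3 comparisons that hold fold changes on the log2 scale with their means, standard errors, Wald statistics and p-values before and after adjustment, which were not used.

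Size factors were recomputed by median of ratios over the 13712 genes at 10 or more in every library. That minimum was chosen after the data were seen, among several that were looked at together with their effect on the proteasome genes, and minima of 1 and 1000 are given as alternatives. Genes were kept where 4 or more libraries had a scaled count of 10 or above, and the pseudocount was 1. The planned limma test was not possible without a spread between replicates, so conditions were compared by log2 difference with no test. Exon lengths came from GENCODE M21 (GRCm38), which covered 99.5% of the genes past the filter, and promoters from RefSeq (GRCm38.p6). Genes given with values in every condition are the catalytic subunits, the highest and lowest of each structural group, the 3 largest differences each way in each comparison (fewer where fewer were higher), every proteasome gene past 1.5-fold and those under the filter, while other pathway genes past 1.5-fold are given by their differences. Psmd13, Psmc6, and in the wider pathway Nfe2l1, Ngly1, Pomp and Txnl1, were also named after their values were seen. The genes, the lists of pathway and marker genes and the promoter motifs were chosen with earlier results of these data known. Alternatives were TMM factors, library totals, quantile normalization, the columns as deposited, other filters, pseudocounts and folds, and leaving out each library. Functions were tested on simulated data. The tools were numpy 2.4.6, pandas 2.3.3 and matplotlib 3.10.9 under Python 3.11.15.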

Additional observations from a re-analysis of the deposited data

How the results depend on the processing

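Pseudocounts of 0.5 and 5, no filter or a minimum of 50, only genes at 10 or more in every condition, and leaving out Psmc3ip kept the counts past 1.5-fold within 1.5 times and the medians within 0.1. The scaling between conditions moved them more. For LE against LPS the median of the proteasome genes was -0.17 with TMM factors, 0.055 with median of ratios over genes at 1000 or more and 0.22 in the columns as deposited, and 0.02 and 0.04 with library totals and quantile normalization, so that its sign is not determined. 2 genes were past 1.5-fold with library totals. For LEKU against LE the median stayed from -0.30 to -0.21 over 6 scalings, and 2 genes were past 1.5-fold in the columns as deposited. For LEKU against LPS 2 genes were past 1.5-fold with library totals (median -0.18), 1 with quantile normalization (median -0.14), 1 in the columns as deposited (median -0.11) and 1 with genes at 1000 or more (median -0.15). With a lower threshold, a log2 difference of 0.32, 5, 14 and 15 genes were past the threshold in LE against LPS, LEKU against LE and LEKU against LPS, of 35, where 58.6%, 41.6% and 59.2% of all genes were past it. At 2-fold 0 genes were past it in LE against LPS and 0 in LEKU against LPS. The median of all genes moved with the scalings as well. Scalings with 1 factor per library shift all genes alike and cannot test the difference between the medians of proteasome and all genes. That difference lay between -0.10 and -0.09 for LE against LPS in such scalings. With quantile normalization, which can change it, it was 0.13, from medians of 0.04 and -0.08. For LEKU against LE the difference between the medians was -0.25 in the main scaling and -0.22 with quantile normalization. For LEKU against LPS it was -0.37 and -0.13.

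Leaving out 1 library at a time re-estimates the size factors only, since the fitted means were the same in every library of a condition, and says nothing about variation between cultures. The median then lay between -0.06 and -0.05 for LE against LPS, -0.30 and -0.29 for LEKU against LE, and -0.31 and -0.30 for LEKU against LPS, and the counts stayed at 1, 0 and 7. No paired analysis was possible because the fitted means hold no deviations of single libraries and no test was run. Depth was not the limit for the 35 genes past the filter, whose counting error was at most 0.062 on the log2 scale. The limit was the missing spread between replicates.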
